A study of Mus musculus with 22 samples.

Results

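The 10 genes described here belong to the early progenitor cytokine receptor and Stat5 axis: the receptor chains Il7r, Il2rg, Kit and Flt3, the kinases Jak1 and Jak3, the transcription factors Stat5a and Stat5b, and the feedback genes Cish and Socs2. They were taken by symbol from the 52636 gene identifiers of the count table, and each of the 10 was found once. Their levels were measured by sequencing tags from the 3' end of messenger RNA in 22 mouse lymphoma libraries that trace to 15 donor mice.

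All donor mice were of a mixed 129/C57Bl6 background and carried floxed p53 alleles with Mb1Cre, a Cre recombinase driven by the B lineage promoter of Cd79a. The MCL-like transplants (6 libraries, 4 donor mice) and the Ccnd2 non-MCL transplants (2 libraries, 1 donor mouse) were R26-Ccnd2tg/tg;p53fl/fl;Mb1Cretg/+ tumours grown in NSG hosts, which lack mature B, T and NK cells and have no working Il2rg gene but keep myeloid cells. The primary tumours of that genotype were MCL-like, that is, of an immunophenotype resembling mantle cell lymphoma (4 mice), or non-MCL (3 mice, called Ccnd2 non-MCL). The p53-only primaries were p53fl/fl;Mb1Cretg/+ non-MCL tumours without the cyclin D2 transgene (7 libraries, 6 mice, since replicates 2 and 5 share a mouse). The labels used here give no age. The titles of the 6 MCL-like transplants call them non-MCL, and they were placed by their immunophenotype field, which gives MCL-like. MCL-like replicate 1 was a mesenteric lymphoma and replicates 2 to 4 came from spleen. Ccnd2 non-MCL replicate 1 and p53-only replicate 4 were mediastinal, p53-only replicate 6 was a thymoma, p53-only replicates 5 and 7 are labelled only as lymphoma, and the other primaries were splenic. Ccnd2 non-MCL replicate 3 and p53-only replicates 4 to 7 carry sample names that begin with oTP, and the other libraries carry names that begin with TP; the labels do not say what the prefix means.

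Library totals were 3159419 to 4739716 counts in MCL-like primaries, 2693399 to 8146613 in Ccnd2 non-MCL primaries and 2936387 to 6057077 in p53-only primaries, and 3050785 to 5825652 across the 6 MCL-like transplants. Levels are CPM (counts relative to a library total of 1000000), given per library, or as mean ± SD over mice. The B lineage genes Cd79a, Cd79b, Pax5 and Ebf1 were detected in each group. Haemoglobin genes, a sign of blood in the sample, summed to 22717 to 109513 CPM in MCL-like primaries, 3114 to 31786 CPM in Ccnd2 non-MCL primaries and 88.4 to 37777 CPM in p53-only primaries. Leaving them out of the totals moved no group mean of a member by 1 SD. Many of these SDs were wide beside their means, so this says little about the part of blood. In whole tumour RNA, fewer cells of a type and less RNA per cell cannot be told apart. Genes were called at a Benjamini-Hochberg adjusted p under 0.05 in edgeR's quasi-likelihood test over all genes that passed the low-count filter, with the mouse as the unit, so p-values measure the spread between these mice. Counts of genes at an unadjusted p under 0.05 are a description only, since the share of all genes at that p was not computed.

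Interleukin 7 binds a receptor made of Il7r and the common gamma chain Il2rg, whose cytoplasmic tails hold the kinases Jak1 and Jak3. These kinases phosphorylate Stat5a and Stat5b, which enter the nucleus and switch on genes that include the feedback inhibitors Cish and Socs2. In mouse bone marrow the pathway sustains pro-B and pre-B cells, while Kit and Flt3 are receptor tyrosine kinases of earlier progenitors, and mature B cells have shut down Il7r.

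Stat5 dimers bind the palindrome TTCNNNGAA, called a GAS motif, and promoters of 300 bases (250 before and 50 after each annotated start, RefSeq, GRCm38.p6) were available for 9 of the 10 genes, Socs2 being the exception. The Cish and Il7r promoters are shown because they were the members' promoters that held the motif, and Il2rg because its level went the other way from Il7r. The GAS motif, searched on both strands, occurred in 8.30% of 32851 promoters, and 0.457% held more than 1 copy.
Cish, chr9:107296409-107296708, plus strand, GAS motifs in capitals: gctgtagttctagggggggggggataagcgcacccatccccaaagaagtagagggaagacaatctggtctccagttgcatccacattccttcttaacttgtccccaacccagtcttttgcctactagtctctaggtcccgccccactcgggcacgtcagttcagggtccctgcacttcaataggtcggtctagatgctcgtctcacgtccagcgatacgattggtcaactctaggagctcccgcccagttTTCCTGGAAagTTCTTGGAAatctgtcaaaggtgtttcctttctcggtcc
Il7r, chr15:9529827-9530126, minus strand, GAS motif in capitals: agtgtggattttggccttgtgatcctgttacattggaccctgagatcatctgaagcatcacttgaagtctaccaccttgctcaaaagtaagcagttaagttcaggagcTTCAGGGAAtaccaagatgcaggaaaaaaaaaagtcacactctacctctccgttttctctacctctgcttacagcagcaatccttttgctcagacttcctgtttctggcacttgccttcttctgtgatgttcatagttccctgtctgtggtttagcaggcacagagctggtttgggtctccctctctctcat
Il2rg, chrX:101268206-101268505, minus strand, CNGGAAG in capitals: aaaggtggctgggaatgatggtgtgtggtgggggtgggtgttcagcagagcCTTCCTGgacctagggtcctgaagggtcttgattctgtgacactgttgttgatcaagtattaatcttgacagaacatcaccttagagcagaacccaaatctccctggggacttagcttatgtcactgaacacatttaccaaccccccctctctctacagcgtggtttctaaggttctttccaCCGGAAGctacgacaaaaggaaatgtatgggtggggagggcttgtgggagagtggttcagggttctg

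The Cish promoter held 2 GAS motifs, TTCCTGGAA at bases 251 to 259 and TTCTTGGAA at bases 262 to 270, so the first begins at the annotated start. The Il7r promoter held 1, TTCAGGGAA at bases 109 to 117, and the Il2rg promoter held none. The Il2rg promoter held 2 copies of CNGGAAG, the core bound by Ets family factors, read on either strand. The Il7r promoter held 1 copy as well, at bases 203 to 209 and not in capitals above, and the Stat5a and Stat5b promoters held it too. These letters were chosen after the sequences were seen; 31.9% of promoters hold at least 1 copy and 7.36% hold more than 1. A match describes these letters only.

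MCL-like primaries carried little Il7r RNA and much Il2rg RNA, the reverse of most non-MCL tumours. Across MCL-like against all non-MCL primaries (4 against 9 mice), Il7r fell while Il2rg and Jak3 rose. These were the 3 of 10 members called, where 5.51% of 12434 genes tested were called (3.11% up and 2.4% down). The other 7 members did not pass the test. This contrast mixes genotype with immunophenotype, since all MCL-like mice carry the cyclin D2 transgene and the p53-only mice lack it. The median log2 fold change of the 10 members was -0.89, beside -0.07 over all genes tested.

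**Figure D1:**
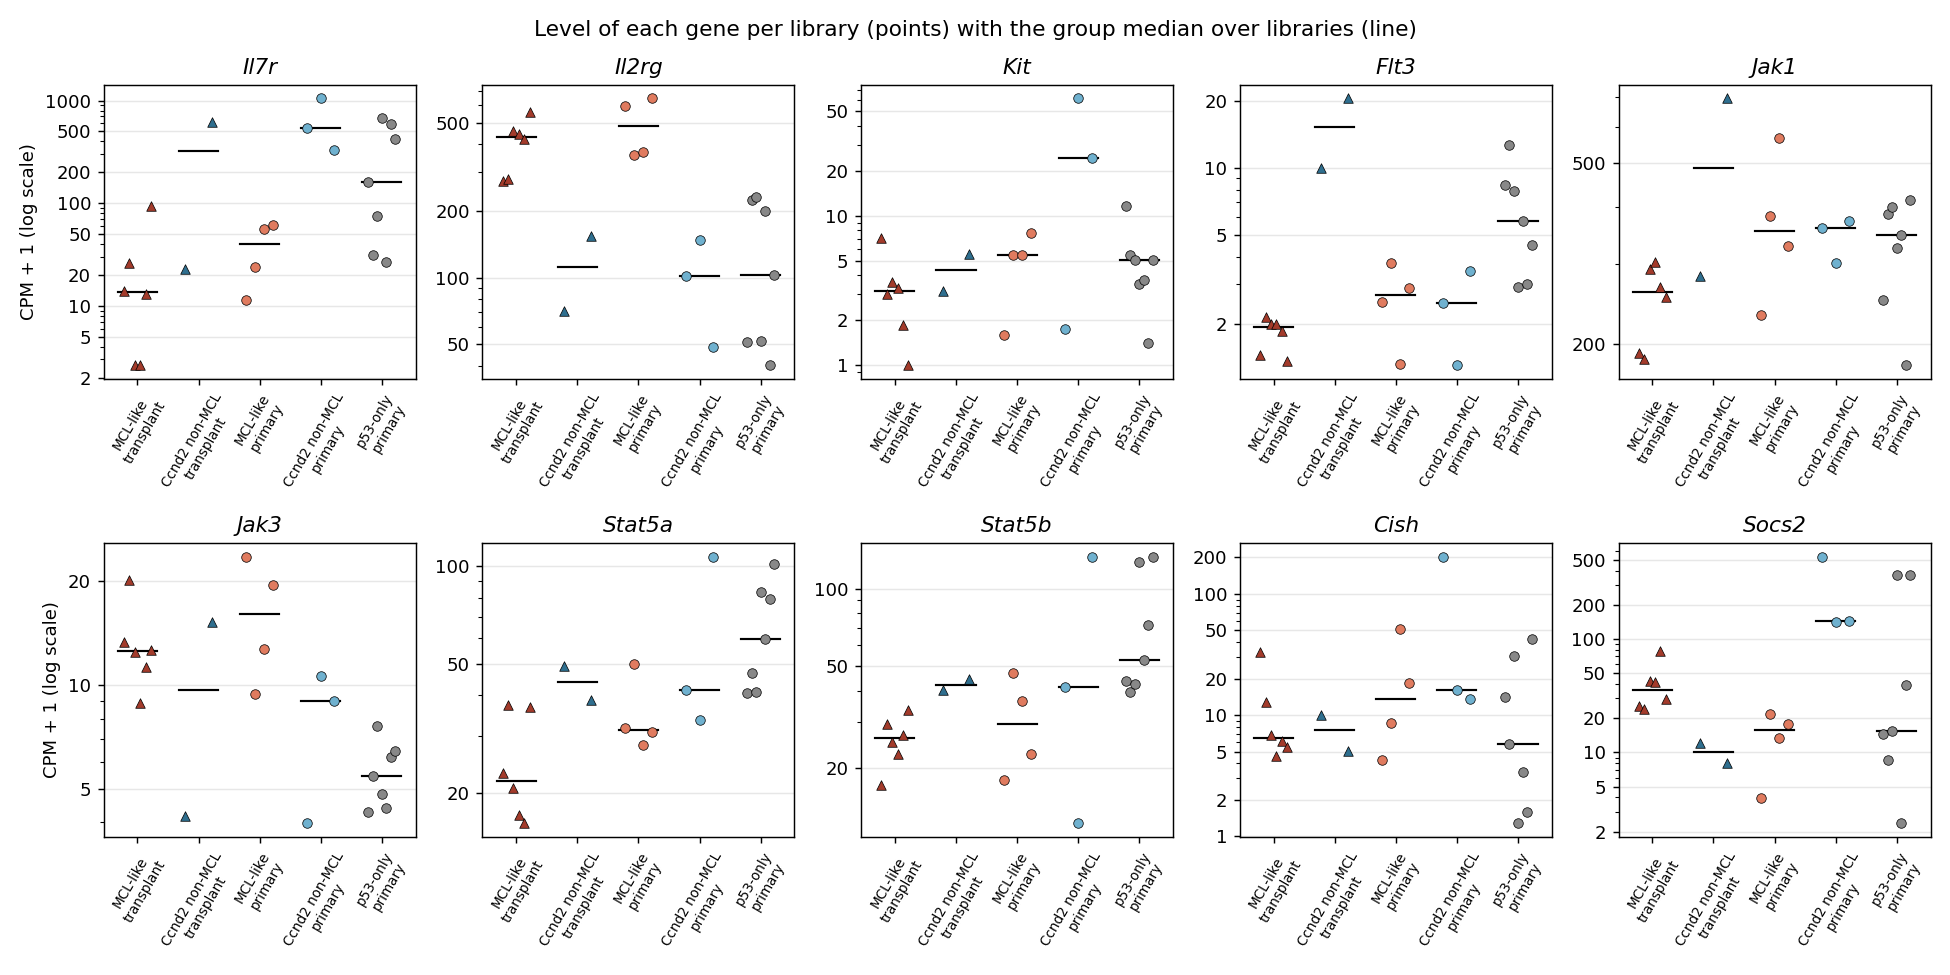
Level of each of the 10 genes in every library, as CPM + 1 on a log axis, by group; points are libraries and the line is the median over libraries. Il2rg was 359 CPM or more in each MCL-like primary and at most 230 CPM in every non-MCL primary, while the p53-only libraries covered a range of Il7r from 25.9 to 668 CPM.

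Il7r, the interleukin 7 receptor alpha chain (GRCm38 chromosome 15, 9505788 to 9530176, minus strand), had 10.4, 22.8, 54.4 and 59.6 CPM in the MCL-like primaries, against 545, 1052 and 329 CPM in the Ccnd2 non-MCL primaries. In the 7 p53-only libraries it had a lowest value of 25.9, a median of 161 and a highest value of 668 CPM. The median over the 6 p53-only mice was 291 CPM. Every MCL-like primary lay below every Ccnd2 non-MCL primary, and MCL-like and p53-only tumours overlapped, p53-only replicates 2 and 5 at 30.4 and 25.9 CPM lying inside the MCL-like range. Means over mice were 36.8 ± 24.0 CPM in MCL-like (SD, n = 4), 642 ± 371 in Ccnd2 non-MCL (SD, n = 3) and 324 ± 273 in p53-only primaries (SD, n = 6). The means of the Ccnd2 non-MCL and p53-only primaries differ by less than the SD of the Ccnd2 non-MCL mice.

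Against all non-MCL primaries, Il7r fell by 3.43 on the log2 scale in MCL-like primaries (SE 0.84, edgeR adjusted p = 0.0323). Against the Ccnd2 non-MCL primaries alone the log2 fold change was -4.07 (SE 0.92, edgeR adjusted p = 0.0758), which did not pass. There edgeR called 0.308% of 12967 genes (0.0617% up and 0.247% down) and 0 of the 10 members, with 5 members at an unadjusted p under 0.05. DESeq2, which called more of all genes than edgeR, called 3 members, namely Il7r, Il2rg and Socs2. The call against all non-MCL mice was lost without any 1 of the MCL-like replicates 1 to 4 (edgeR adjusted p = 0.0862, 0.0920, 0.0684 and 0.0795) or without p53-only replicate 6 (0.0501), each with a fold change in the same direction. It was also lost without the oTP libraries (log2 fold change -3.32, adjusted p = 0.113 by edgeR) and among spleen tumours alone (-2.87, adjusted p = 0.244 by edgeR). Both of these sets leave out p53-only replicates 4, 6 and 7, which had the most Il7r of their group, at 668, 588 and 422 CPM. The call was lost as well without the low-count filter and with the name prefix as a covariate. Over all 21 alternatives the log2 fold change of Il7r lay between -3.78 and -2.87.

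Il2rg, the common gamma chain shared by the receptors of interleukins 2, 4, 7, 9, 15 and 21 (chromosome X, 101264378 to 101268255, minus strand), had 594, 359, 368 and 645 CPM in MCL-like primaries, against 101, 147 and 47.9 CPM in Ccnd2 non-MCL primaries. In p53-only libraries it ran from 39.3 through a median of 101 to 230 CPM, and the median over the 6 mice was 76.3 CPM. It was the only member whose MCL-like mice all lay outside the range of the 9 non-MCL mice, a separation seen in 4.73% of genes tested (1.85% with MCL-like higher and 2.88% lower). Against the Ccnd2 non-MCL mice alone, Il7r, Il2rg and Socs2 did not overlap, where 16.2% of genes did not (5.66% with MCL-like higher and 10.5% lower).

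Il2rg averaged 492 ± 149 CPM in MCL-like primaries (SD, n = 4) and 109 ± 73.2 CPM in all non-MCL primaries (SD, n = 9). It rose by a log2 fold change of 2.30 (SE 0.46, edgeR adjusted p = 0.0138), and the log2 fold change against Ccnd2 non-MCL was 2.42 (SE 0.68, edgeR adjusted p = 0.108). Without MCL-like replicate 1 the adjusted p against all non-MCL mice was 0.0525 by edgeR (log2 fold change 2.07), without the oTP libraries 0.0601 (1.77), and among spleen tumours 0.220 (1.65). Over all 21 alternatives the log2 fold change of Il2rg lay between 1.65 and 2.49. T cells also make Il2rg, and summed CPM of 10 T cell markers was 116 to 294 in MCL-like primaries, 41.6 to 107 in Ccnd2 non-MCL primaries and 14.97 to 310 in p53-only primaries. None of the 10 markers was at 0 in any group. Cd5, which some B cells also make, is among the 10, so the sum need not measure T cells alone. In MCL-like transplants the T cell sum was 44.8 to 76.3 CPM and Il2rg was 273 to 559 CPM. The part of T cells in the Il2rg difference was not tested.

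Il7r and Il2rg counts were also set against each other within each library. The Il7r count per Il2rg count was 0.0175, 0.0635, 0.148 and 0.0924 in the MCL-like primaries, against 5.39, 7.13 and 6.88 in the Ccnd2 non-MCL primaries. In p53-only replicates 1 to 7 it was 3.20, 0.137, 0.325, 13.1, 0.130, 14.96 and 4.16. Replicates 2, 3 and 5, from 2 mice, were thus below 1 like MCL-like tumours, and the other 4 were above 1 like the Ccnd2 non-MCL tumours. This ratio is given as a description because it combines genes already tested.

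**Figure D2:**
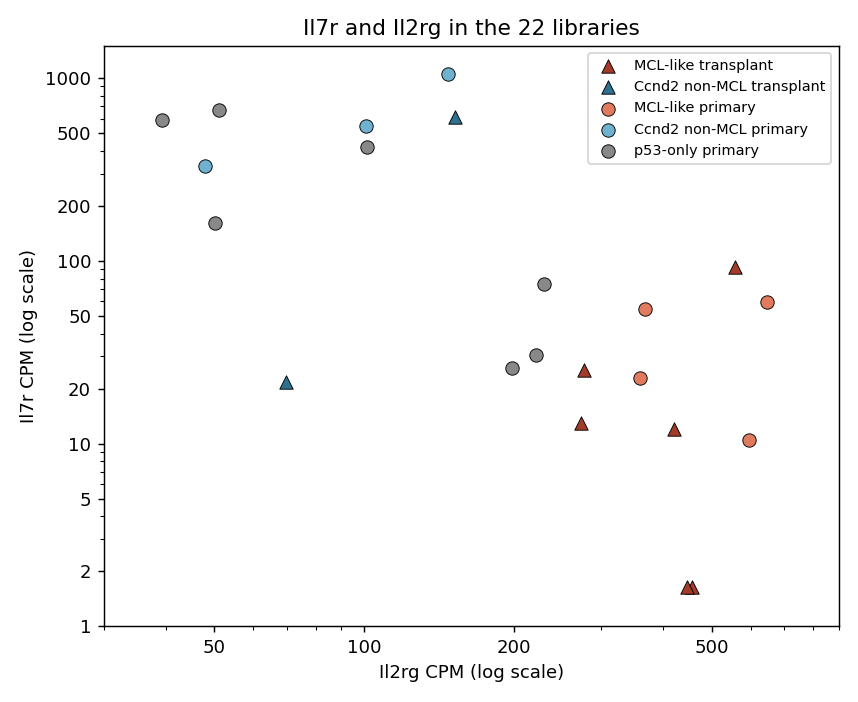
Il7r CPM against Il2rg CPM in each of the 22 libraries, both on log axes; triangles are transplants and circles primaries. MCL-like libraries sit at 273 CPM or more of Il2rg and at most 92.7 CPM of Il7r, and the Ccnd2 non-MCL primaries at 147 CPM or less of Il2rg and 329 CPM or more of Il7r.

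Markers of pro-B and pre-B cells, the stage at which Il7r is known to act, were set beside it. The summed CPM of 11 such markers was 148 to 825 in MCL-like primaries, 5028 to 9831 in Ccnd2 non-MCL primaries and 270 to 9635 in p53-only primaries, and none of the markers was at 0 in any of these groups. Within the p53-only group, the libraries with the most Il7r were replicates 4, 6 and 7, with 668, 588 and 422 CPM, and these had marker sums of 9635, 2779 and 7511 CPM. The p53-only replicates 1, 2, 3 and 5 had 161, 30.4, 74.9 and 25.9 CPM of Il7r and marker sums of 604, 270, 446 and 719 CPM. Among these 4 libraries the highest sum went with the lowest Il7r, in replicate 5. Replicates 2 and 5 share a mouse, so this order of libraries is not an order of mice. The 2 Ccnd2 non-MCL transplants, both from 1 donor mouse, had 21.7 and 615 CPM of Il7r with marker sums of 1047 and 250 CPM. Of the 11 markers, 4 were called lower in MCL-like against all non-MCL primaries (Vpreb3, Rag1, Rag2 and Sox4) and 0 higher, where 2.4% of genes tested were called lower. All 11 had a log2 fold change below 0 and an unadjusted p under 0.05 in edgeR. Their median log2 fold change was -5.08, beside -0.07 over all genes tested. The part of these cells in the Il7r difference was not tested.

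**Figure D3:**
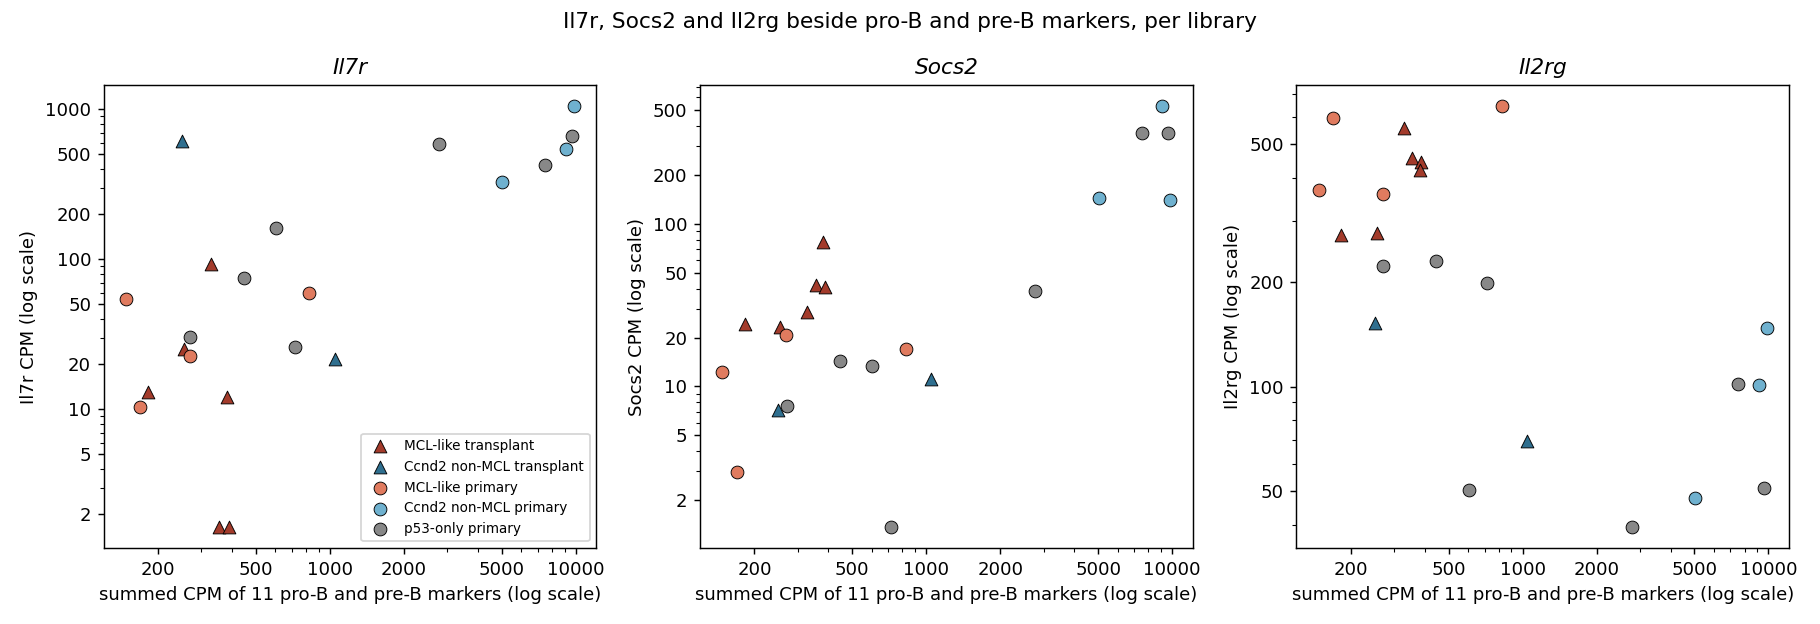
CPM of Il7r, Socs2 and Il2rg in each library against the summed CPM of 11 pro-B and pre-B markers, all on log axes. Libraries with marker sums of 2779 CPM or more had Il7r from 329 to 1052 CPM. Below that the order of libraries was not kept. The Ccnd2 non-MCL transplants, both from 1 donor mouse, had 21.7 CPM of Il7r at a marker sum of 1047 and 615 CPM at a sum of 250.

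Kit, the receptor of stem cell factor, was scarce in most tumours. It had 0.595, 4.43, 4.43 and 6.72 CPM in MCL-like primaries, against 0.743, 60.2 and 23.4 CPM in Ccnd2 non-MCL primaries. In p53-only libraries it ran from 0.399 through a median of 4.03 to 10.7 CPM. The highest levels of Kit were in Ccnd2 non-MCL replicates 2 and 3, while replicate 1 of that group lay in the low range of the others. The log2 fold change was -2.72 in MCL-like against Ccnd2 non-MCL primaries (SE 1.07, edgeR adjusted p = 0.215) and -1.50 against all non-MCL primaries (SE 1.10, edgeR adjusted p = 0.416). Mast cells also make Kit, and the summed CPM of 9 mast cell and basophil markers was 4.43 to 44.6 in MCL-like primaries, 0 to 15.96 in Ccnd2 non-MCL primaries, where Tpsab1 was at 0, and 1.65 to 29.8 in p53-only primaries. Early erythroid cells make Kit as well, and the summed CPM of 7 erythroid markers in Ccnd2 non-MCL replicates 1 to 3 was 26.4, 646 and 538. It was 273 to 1774 in MCL-like primaries and 0.549 to 1006 in p53-only primaries, the highest in replicate 1, which also had the most Kit of its group. The part of these cells in the Kit levels was not tested.

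Flt3, the receptor of Flt3 ligand on multipotent and lymphoid progenitors, had 1.49, 2.74, 0.317 and 1.88 CPM in MCL-like primaries, against 1.49, 0.300 and 2.46 CPM in Ccnd2 non-MCL primaries. P53-only libraries had more, with a lowest value of 1.92, a median of 4.77 and a highest value of 11.7 CPM. The ranges of the groups met between 1.92 and 2.74 CPM. These levels rest on few reads, since the 4 MCL-like primaries held 26 Flt3 counts together and the Ccnd2 non-MCL primaries 25. Dendritic cells express Flt3 as well, and summed CPM of 8 dendritic markers was 33.04 to 144 in MCL-like, 4.46 to 71.3 in Ccnd2 non-MCL and 2.75 to 119 in p53-only primaries, none of them at 0; their part was not tested.

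In the Ccnd2 non-MCL against p53-only primaries, which differ in the labels by the cyclin D2 transgene, edgeR called 0 of the 10 members and 0% of 12967 genes (3 against 6 mice). Only Kit and Flt3 had an unadjusted p under 0.05, and DESeq2 called 0 members. Kit had a log2 fold change of 2.66 (SE 0.93, edgeR adjusted p = 0.389) and Flt3 one of -1.90 (SE 0.85, edgeR adjusted p = 0.471). Socs2 passed there only in reduced sets of mice, with a log2 fold change of 4.77 without the oTP libraries (edgeR adjusted p = 0.0284) and 3.47 among spleen tumours (edgeR adjusted p = 0.0126), against 1.10 with all mice (SE 1.07, edgeR adjusted p = 0.736). Both reduced sets leave out p53-only replicates 4 to 7, of which 4 and 7 had 365 and 363 CPM of Socs2. The p53-only replicates 1 to 3 that stay had 13.4, 7.59 and 14.4 CPM of Socs2. Their pro-B and pre-B marker sums were 604, 270 and 446 CPM, below those of replicates 4, 6 and 7. No member had CPM ranges that did not overlap between the Ccnd2 non-MCL and p53-only primaries, where 3.3% of genes were separated (1.72% with Ccnd2 non-MCL higher and 1.58% lower).

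Jak1, the kinase held by Il7r and by many other receptors, had a similar level in most tumours, with 230, 381, 567 and 327 CPM in MCL-like primaries, against 359, 300 and 372 CPM in Ccnd2 non-MCL primaries. In p53-only libraries it ran from 179 through 347 to 415 CPM, and all 3 groups overlapped. The log2 fold change of MCL-like against all non-MCL primaries was 0.35 (SE 0.27, edgeR adjusted p = 0.442).

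Jak3, the kinase that sits on the common gamma chain (chromosome 8, 71676296 to 71690575, plus strand), had 22.6, 8.44, 11.7 and 18.5 CPM in MCL-like primaries, against 2.97, 9.59 and 7.98 CPM in Ccnd2 non-MCL primaries. The p53-only libraries had 3.30 to 6.62 CPM with a median of 4.46. Every MCL-like primary lay above every p53-only library, and MCL-like replicate 2 lay below Ccnd2 non-MCL replicate 2. Jak3 averaged 15.3 ± 6.42 CPM in MCL-like primaries (SD, n = 4) and 5.45 ± 2.24 CPM in all non-MCL primaries (SD, n = 9).

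Jak3 rose by a log2 fold change of 1.65 in MCL-like against all non-MCL primaries (SE 0.40, edgeR adjusted p = 0.0291). Against Ccnd2 non-MCL primaries the log2 fold change was 1.296 (SE 0.54, edgeR adjusted p = 0.238). The log2 fold change of Jak3 against all non-MCL primaries lay between 0.98 and 1.80 over 21 alternatives, lowest among spleen tumours. The call was lost without MCL-like replicate 1, 3 or 4 (edgeR adjusted p = 0.129, 0.0651 and 0.0815), without the oTP libraries (0.129) and among spleen tumours (0.408). It was also lost without the low-count filter and with the name prefix as a covariate. T and NK cells make Jak3 too, and summed CPM of 7 NK markers was 26.2 to 158 in MCL-like, 11.1 to 82.7 in Ccnd2 non-MCL and 5.07 to 446 in p53-only primaries, none at 0. In MCL-like transplants, where the NK sum was 1.26 to 21.3 CPM, Jak3 was 7.87 to 19.2 CPM. The part of T and NK cells in the Jak3 difference was not tested. Against all non-MCL primaries, the gamma chain and its kinase were thus both higher in MCL-like primaries, while the alpha chain was lower. Against the Ccnd2 non-MCL primaries, which share the genotype, none of these genes passed in edgeR.

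**Figure D4:**
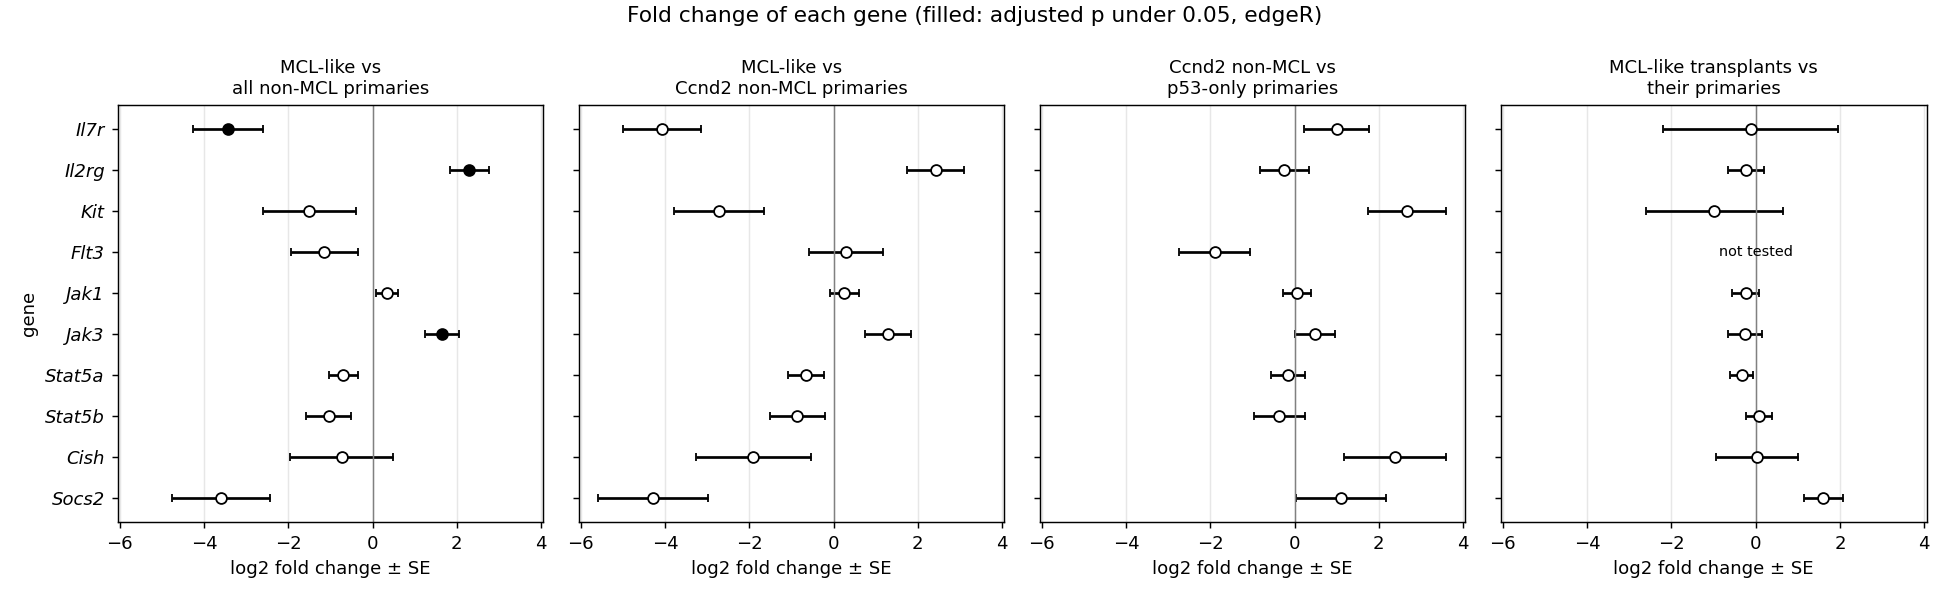
Log2 fold change of each member in the 4 comparisons, with bars of 1 SE; filled points passed an adjusted p under 0.05 in edgeR. Only Il7r (-3.43), Il2rg (2.30) and Jak3 (1.65) against all non-MCL primaries are filled, and Flt3 was not tested between transplants and primaries.

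Stat5a and Stat5b, neighbouring genes 8626 bases apart on chromosome 11, are the near-identical factors that carry the signal to the nucleus. Stat5a had 30.6, 49.2, 27.2 and 29.8 CPM in MCL-like primaries, against 40.5, 32.7 and 106 CPM in Ccnd2 non-MCL primaries, and 39.8 to 101 CPM in p53-only libraries with a median of 58.6. Stat5b had 16.9, 46.0, 35.5 and 21.5 CPM in MCL-like primaries, against 40.1, 11.1 and 131 CPM in Ccnd2 non-MCL primaries, and 38.6 to 133 CPM in p53-only libraries with a median of 51.4. For both genes the groups overlapped, but the 5 oTP libraries stood apart, and no MCL-like library is among them. Stat5a was 58.6 to 106 CPM in the oTP libraries and at most 49.2 CPM in any other library. Stat5b was 51.4 to 133 CPM in the oTP libraries and at most 46.0 CPM in any other library.

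Against all non-MCL primaries the log2 fold change in MCL-like primaries was -0.69 for Stat5a (SE 0.34, edgeR adjusted p = 0.221) and -1.04 for Stat5b (SE 0.53, edgeR adjusted p = 0.235). Without the oTP libraries it was -0.14 for each (edgeR adjusted p = 0.840 for Stat5a and 0.895 for Stat5b), and with the name prefix as a covariate -0.12 for Stat5a and -0.13 for Stat5b (edgeR adjusted p = 0.829 and 0.890). The Stat5a count per Stat5b count ran from 0.768 to 1.81 in MCL-like primaries, 0.809 to 2.95 in Ccnd2 non-MCL primaries and 0.651 to 1.19 in p53-only libraries. Stat5a overlaps Stat3 by 72 bases at their 3' ends on opposite strands, and Stat3 had 26233 counts over the 22 libraries where Stat5a had 4530. Whether counting used strand is not given in the sources used here, so the Stat5a level is uncertain.

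Cish and Socs2 are feedback inhibitors that Stat5 induces in many blood cells. Cish (chromosome 9, 107296026 to 107302784) had 3.27, 7.60, 50.3 and 17.5 CPM in MCL-like primaries, against 203, 14.99 and 12.6 CPM in Ccnd2 non-MCL primaries. In p53-only libraries it ran from 0.275 through a median of 4.79 to 41.1 CPM, and the median over the 6 mice was 8.60 CPM. All 3 groups overlapped, and the mean of Ccnd2 non-MCL (76.8 ± 109 CPM, SD, n = 3) rested on replicate 1. The log2 fold change of Cish in MCL-like against all non-MCL primaries was -0.73 (SE 1.21, edgeR adjusted p = 0.735), and without Ccnd2 non-MCL replicate 1 it was 0.52.

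Socs2 (chromosome 10, 95385362 to 95417180, minus strand) had 2.97, 20.7, 12.3 and 16.9 CPM in MCL-like primaries, against 532, 140 and 143 CPM in Ccnd2 non-MCL primaries. In p53-only libraries it ran from 1.36 through a median of 14.4 to 365 CPM, and the median over the 6 mice was 26.5 CPM. The MCL-like primaries all lay below the Ccnd2 non-MCL primaries and inside the p53-only range, where replicates 4 and 7 were high (365 and 363 CPM) and the other 5 libraries were at 1.36 to 38.5 CPM. These 2 high libraries also had high Il7r and high pro-B and pre-B marker sums, while replicate 6, high in Il7r at 588 CPM, had 38.5 CPM of Socs2.

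Socs2 had the largest fold change of the 10 members in size, -3.59 on the log2 scale against all non-MCL primaries (SE 1.16, edgeR adjusted p = 0.0799) and -4.29 against Ccnd2 non-MCL primaries (SE 1.31, edgeR adjusted p = 0.126), and passed neither test. Without p53-only replicates 2 and 5, which are 1 mouse, it passed against all non-MCL primaries (edgeR adjusted p = 0.0450). DESeq2 called it in both comparisons, at adjusted p = 0.000921 against all non-MCL and 0.00368 against Ccnd2 non-MCL primaries.

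Transplants of MCL-like tumours were set beside the primary tumour of the same mouse in 3 mice, with the mouse as a block. EdgeR called 0 of the 9 members tested and 0% of 12020 genes, DESeq2 called 0 members, and 1 member had an unadjusted p under 0.05. That member was Socs2. It had 23.9, 28.8 and 41.3 CPM in the transplants from the mice of MCL-like primary replicates 1, 2 and 4, against 2.97, 20.7 and 16.9 CPM in those primaries. Socs2 was higher in the transplant in 3 of 3 mice, with a log2 fold change of 1.61 (SE 0.47, edgeR adjusted p = 0.820, smallest 0.0754 and largest 1 over the alternatives tried).

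The low Il7r and high Il2rg of MCL-like primaries were also seen in the transplants. All transplants except replicate 5 came from mice whose primaries are among those MCL-like primaries, so they are not a separate set of mice. Across the 6 MCL-like transplant libraries Il7r ran from 1.64 through a median of 12.5 to 92.7 CPM, and Il2rg from 273 through 433 to 559 CPM. The Il7r count per Il2rg count was at most 0.166. Between a transplant and its own primary the direction of Il7r varied, with 18.3, 92.7 and 1.64 CPM in the transplants from the mice of replicates 1, 2 and 4, against 10.4, 22.8 and 59.6 CPM in their primaries (log2 fold change -0.12, SE 2.08, edgeR adjusted p = 0.990). Il2rg had a log2 fold change of -0.22 (SE 0.43, edgeR adjusted p = 0.913) and Jak3 one of -0.25 (SE 0.41, edgeR adjusted p = 0.899).

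**Figure D5:**
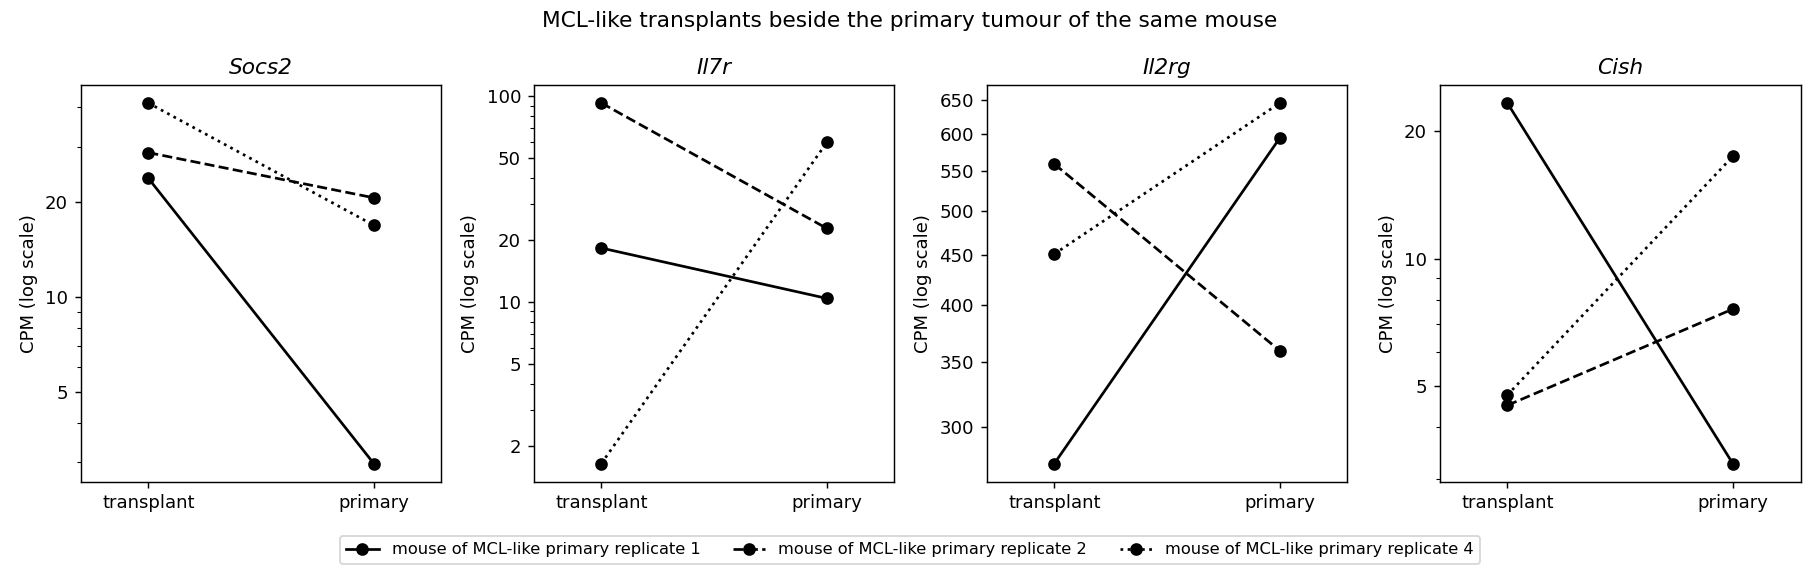
Socs2, Il7r, Il2rg and Cish in the MCL-like transplants (left) and the primary (right) of each of 3 mice, in CPM on a log axis with a range of its own in each panel; lines join a mouse. Socs2 lies higher in the transplant in all 3 mice (23.9, 28.8 and 41.3 CPM in transplants against 2.97, 20.7 and 16.9 CPM in primaries), and each of the other 3 genes is higher in the transplant in some mice and lower in others.

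The remaining members were also low or level in the MCL-like transplants. Kit ran from 0 to 6.15 CPM, and its 0 in replicate 6 allows up to 0.539 CPM for counting error alone, taking 3 counts as the limit. Flt3 ran from 0.360 to 1.13 CPM, Jak1 from 184 to 302 CPM, Stat5a from 15.1 to 36.4 CPM and Stat5b from 16.04 to 32.5 CPM. Cish ran from 3.61 to 32.3 CPM.

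The 2 Ccnd2 non-MCL transplants came from 1 donor mouse with no primary library here and were not tested. They had only 45.8 and 83.4 CPM of Ccnd2, where the 3 Ccnd2 non-MCL primaries had 451 to 1953 CPM and p53-only libraries, without the transgene, 5.49 to 1028 CPM. Whether transgene reads count under Ccnd2 was not tested, so the level does not check the genotype label. They differed from each other in Il7r, at 21.7 and 615 CPM, and in Il2rg, at 69.8 and 153 CPM. Both had low Socs2, at 11.1 and 7.12 CPM, where the 3 Ccnd2 non-MCL primaries had 140 CPM or more. Flt3 was at 8.99 and 19.6 CPM, against at most 2.46 CPM in the Ccnd2 non-MCL primaries.

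Other genes of the pathway were counted in MCL-like against all non-MCL primaries, where 5.51% of all genes tested were called. The share of all genes at an unadjusted p under 0.05 was not computed. Of 17 other class I cytokine receptor genes listed, 15 were tested, 1 rose and 0 fell, with 7 at an unadjusted p under 0.05 by edgeR. The gene called was Csf2rb, the common beta chain of the receptors for interleukin 3, interleukin 5 and GM-CSF (log2 fold change 2.68, SE 0.62, edgeR adjusted p = 0.0261). It averaged 123 ± 66.0 CPM in MCL-like primaries (SD, n = 4) and 21.4 ± 17.4 CPM in all non-MCL primaries (SD, n = 9). Of 9 ligand genes, among them Il7 and Kitl, 4 were tested and 0 were called by edgeR, with 1 at an unadjusted p under 0.05. Of 7 other Jak and Stat genes 0 were called by edgeR, with 2 at an unadjusted p under 0.05.

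Of 15 further Stat5 targets and feedback genes, Ccnd2 among them, 1 rose and 0 fell, with 7 at an unadjusted p under 0.05 by edgeR. The gene called was Bcl2, which guards against apoptosis, with a log2 fold change of 2.73 (SE 0.70, edgeR adjusted p = 0.0388). Bcl2 had 467 ± 354 CPM in MCL-like primaries (SD, n = 4) beside 73.4 ± 69.4 CPM in all non-MCL primaries (SD, n = 9). Of 12 genes listed as damping the pathway, 1 rose and 0 fell, namely the phosphatase Ptpn1 (log2 fold change 1.91, SE 0.37, edgeR adjusted p = 0.0135). In that list 3 genes had an unadjusted p under 0.05 by edgeR. Of 12 other progenitor receptor and kinase genes 10 were tested, 2 rose (Ly6d and Lyn) and 1 fell (Cd93, a surface marker of immature B cells, log2 fold change -3.90, SE 0.98, edgeR adjusted p = 0.0356). Among these 10, 5 had an unadjusted p under 0.05 by edgeR. The median log2 fold change was 1.14 for the receptors, 0.34 for the Stat5 targets and 0.40 for the damping genes. In the other 3 comparisons edgeR called 0 genes of these 6 lists, with 1 to 6 genes per list at an unadjusted p under 0.05 in MCL-like against Ccnd2 non-MCL primaries and 0 to 2 per list in each of the others.

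Over the 13 primary mice, the genes whose CPM ranked most like Il7r among 8506 genes with a mean of at least 10 CPM were Zfp704 (Spearman rho 0.945), Fn1, Nsd2 and Scarb1 (0.940 each). For Kit they were Smg9 (0.929), Frmd4a (0.896), Ehbp1l1 and Snrnp48 (0.879 each). For Flt3 they were Ssrp1 (0.918), Cdc42se1 (0.879), Cdpf1 and Phgdh (0.868 each). The 13 points share the group structure and the depth of their libraries, and the values are given as a description.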

How the data were processed

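Raw counts per Ensembl gene in 22 lymphoma libraries were used as deposited. Per the labels' protocols, RNA came from fresh lymphoma cells and libraries were made with a reverse 3' messenger RNA kit, so tags are not corrected for, and depend little on, transcript length. Per the submitters' processing notes, FastQC was used for quality control and STAR for alignment to GRCm38; the sources used here do not give tool versions, the read counter, its annotation or its strand setting. Symbols and coordinates came from GENCODE M21, which matched 52403 of 52636 identifiers, and promoters from RefSeq.

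CPM were computed here from the deposited counts over each library total. Counts of libraries from the same mouse were summed. Comparisons were fitted with edgeR 4.0.16 in R 4.3.3 (quasi-likelihood F test, TMM scaling, default low-count filter, robust shrinkage, Benjamini-Hochberg adjustment over all genes tested); SE is |log2 fold change| over the square root of F. The comparisons of MCL-like and of p53-only with Ccnd2 non-MCL primaries shared a fit of 13 mice and share the Ccnd2 non-MCL mice; MCL-like against all non-MCL was a fit of 2 groups. Transplants were paired with primaries by the mouse named in the labels; deviations within a mouse correlated at 0.231, 0.243 and 0.359 over 12020 genes. Scripts were tested on simulated data. The alternatives were DESeq2 1.42.0, library total scaling, no filter, each mouse left out, no oTP libraries, name prefix as covariate, spleen only, single libraries for a mouse, and no block.

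The 10 members, the lists and the markers were chosen with earlier results of these data known. The genes named are the 10 members, the called genes of each pathway list (up to 4), called pro-B and pre-B markers beside Il7r, and the 4 genes most like Il7r, Kit and Flt3.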

Additional observations from a re-analysis of the deposited data

Results flagged for a closer look

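Outlying mice were looked for in 30 combinations of member and group with at least 4 mice, by whether the gap from the extreme mouse to its neighbour took up more of the group's range than Dixon's 95% critical value allows. For normally distributed values chance gives this in about 1 in 20 groups, and 3 were found. All 3 were the highest value of their group. CPM need not be normally distributed, and the rate for such values was not tested. Kit stood at 10.7 CPM in p53-only replicate 1, while the other 5 mice had 0.399 to 4.09 CPM. Stat5a stood at 49.2 CPM in MCL-like primary replicate 2, while the other 3 mice had 27.2 to 30.6 CPM. Cish stood at 23.4 CPM in the mouse of MCL-like transplant replicates 1 and 2, while the other 3 donor mice had 4.49 to 5.15 CPM. Replicate 1 had 32.3 and replicate 2 had 11.9 CPM of Cish, and the primary tumour of that mouse had 3.27 CPM. Blood also differed: haemoglobin genes summed to 117012 and 10694 CPM in replicates 1 and 2, against 272 to 1558 CPM in the other 4 MCL-like transplants, and 7 erythroid markers to 2149 and 162 CPM, against 4.49 to 48.8 CPM. P53-only replicate 1, which had the most Kit, had the highest erythroid and haemoglobin sums of its group, at 1006 and 37777 CPM. The part of blood in these values was not tested.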

How the results depend on the processing

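Against all non-MCL primaries, where 3 members were called, 4 were called by DESeq2, 1 without a filter or with the name prefix as covariate (Il2rg in both), 0 without the oTP libraries or among spleen tumours, and 0 to 4 with a mouse left out. Over 21 alternatives Il7r was called in 12, Il2rg in 18 and Jak3 in 14, and none of the 3 changed sign. MCL-like against Ccnd2 non-MCL primaries had 0 members called, but 3 by DESeq2 or in a fit of only those 2 groups, 2 (Il7r and Socs2) without oTP libraries or among spleen tumours, and 0 to 1 with a mouse left out (Il7r without p53-only replicates 2 and 5). Ccnd2 non-MCL against p53-only primaries had 0, but 1 (Socs2) without oTP libraries or among spleen tumours. Both of these sets leave out p53-only replicates 4 to 7. Transplants against primaries had 0 under every alternative, including the fit without the replicate block.

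Calls over all genes varied more. Against all non-MCL primaries 685 became 1698 with DESeq2, 246 without oTP libraries, 224 with the prefix, 39 among spleen tumours and 176 to 1065 with a mouse left out. Against Ccnd2 non-MCL primaries 40 became 847 with DESeq2, 552 without oTP libraries, 371 in the fit of 2 groups, 116 among spleen tumours, 16 and 17 with a single library for the mouse that has a pair, 19 with the prefix, and 0 to 54 with a mouse left out. Between Ccnd2 non-MCL and p53-only primaries 0 became 119, 116, 41, 2 and 1 with DESeq2, without oTP, among spleen tumours, without a filter and with the prefix, and 0 to 8 with a mouse left out. Between transplants and primaries 0 became 31 with DESeq2, 35 without a filter, and 0 to 14 with a mouse left out. Scaling by library totals moved the median log2 fold change of all genes to -0.22, from -0.07, against all non-MCL primaries.

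Among the members' log2 fold changes recomputed, 647 kept their direction and side of the threshold, 19 lost and 15 gained a call in the same direction, and 39 changed sign, none of them past the threshold. For MCL-like against Ccnd2 non-MCL these were Stat5a 0.029 and Stat5b 0.36 without oTP, Flt3 -0.27 and Stat5b 0.088 with the prefix, and Cish 0.95 among spleen tumours; with a mouse left out Cish ran from -3.02 to 0.62, Flt3 from -0.12 to 1.01, Stat5a from -0.90 to 0.062, Stat5b from -1.32 to 0.38 and Jak1 from -0.021 to 0.42. For Ccnd2 non-MCL against p53-only they were Jak1 -0.13 without oTP, and Jak1 -0.16, Stat5a 0.59, Stat5b 0.65 and Cish -0.31 among spleen tumours; with a mouse left out Jak1 ran from -0.049 to 0.16, Stat5a from -0.80 to 0.16, Stat5b from -1.52 to 0.18, Cish from -0.14 to 2.95 and Il2rg from -0.66 to 0.10 (0.036 without p53-only replicates 2 and 5). Against all non-MCL primaries Cish was 0.75 among spleen tumours and ran from -1.90 to 0.52 with a mouse left out. For transplants, library total scaling gave Stat5b -0.028 and Cish -0.097, the fit without the replicate block Il7r 0.51 and Stat5b -0.0498, and transplant libraries kept apart Cish -0.19; with a mouse left out Il2rg ran from -0.67 to 0.23, Stat5b from -0.11 to 0.36, Cish from -1.16 to 0.99, Kit from -2.49 to 0.57 and Il7r from -1.88 to 1.42. The causes of these changes were not tested. All 80 group means recomputed with TMM scaling or without haemoglobin moved by less than 1 SD, which is a loose limit where the SD is wide. Kit and Flt3 rest on few counts, which limits their folds.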

Other observations

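Prlr, the prolactin receptor, which also signals through Stat5, was named after its values were seen. It had 0 to 1.34 CPM in the MCL-like primaries, against 0.371, 1039 and 133 CPM in the Ccnd2 non-MCL primaries, replicates 1 to 3. In p53-only libraries Prlr ran from 1.15 through a median of 3.63 to 47.8 CPM. It was at 0.529 and 106 CPM in the Ccnd2 non-MCL transplants, the library with more Prlr being the one with 615 CPM of Il7r. The log2 fold change of Prlr in MCL-like against Ccnd2 non-MCL primaries was -9.76 (SE 2.04, edgeR adjusted p = 0.0629), which did not pass. Ccnd2 non-MCL replicate 1, which had the least Prlr of its group, had the most Cish and Socs2, at 203 and 532 CPM.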
